A study of Mus musculus with 36 samples.

Results

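The 125 array probes described here read transcripts that were bright in pluripotent mouse cells and lower in fibroblasts. On a log10 scale they were at least 50% of the way to the pluripotent level 1 day after reprogramming factors were switched on. They were chosen by measured values. In the authors' series matrix, which holds log10 brightness for 25030 probes, E is the mean of the embryonic stem (ES) and induced pluripotent stem (iPS) cell arrays, and P is the mean of untreated primary fibroblasts. N1 and D1 are the means of secondary fibroblasts on day 1 without and with doxycycline, both without tamoxifen. A member had E of at least 2.5, E-P and E-N1 of at least 0.6, and D1-N1 of at least 50% of E-N1. Of the 25030 probes, 989 met the first 3 conditions, and 125 of those also met the fourth. With the same differences taken from ratios to the common reference, 59 probes met all 4, 58 of them among the 125. The other 864 serve as the comparison set and are called the other pluripotent-cell probes. All the values that chose the members are given as a description only, and tests were run on arrays or contrasts that the choice did not use.

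The study hybridised RNA of 18 groups, 2 arrays each, against 1 common reference, in which pooled RNA of 11 mouse cell lines was combined with RNA of 129 ES cells. Primary mouse embryonic fibroblasts (MEFs) grew in MEF medium. They were either MEF2 ZERT2, which carry a Zscan4ERT2 transgene, or MEF3, labelled wild, each with (Tmx+) and without (Tmx-) tamoxifen, and both have the label F1 hybrid from V6.5. Secondary MEFs, labelled 2ndMEF-KOS-ZERT2 and all from clone #1, grew in ES medium with LIF for 1, 3 or 6 days with (Dox+) or without (Dox-) doxycycline at 1.5 µg/ml and with or without tamoxifen at 200 nM. The iPS(KOS-ZERT2) cells came from clone #2 and carry the same transgenes, the ES cells were of the line v6.5, and neither received a drug. The labels do not name the promoters that drive the transgenes. Secondary MEFs, iPS cells and ES cells share a C57Bl/6 x 129 hybrid background. The protocol text mentions no tamoxifen for the MEF3 Tmx+ cultures or for replicate 2 of the Dox-Tmx+ cultures of day 1.

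Doxycycline and slide cannot be told apart within a day, because the Dox- groups of a day lay on 1 slide and the Dox+ groups on another. Tamoxifen comparisons lay within a slide, always with Tmx- at the first 2 array positions and Tmx+ at the next 2. The iPS and ES arrays shared a slide in the same way. Tamoxifen therefore cannot be told apart from array position. The labels do not say whether the replicates are separate cultures, and p-values then measure only the spread between these samples, which may be technical. Between 54.9% and 77.1% of the array's probes were well above background on an array, and the number of arrays, 2 per group, limits the precision. In bulk RNA, fewer expressing cells and less RNA per cell cannot be told apart.

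KOS stands for the transcription factors Klf4, Oct4 and Sox2, which together convert fibroblasts into iPS cells over days to weeks. Doxycycline switches on transgenes placed behind a tetracycline-responsive promoter, and secondary MEFs derived from an iPS clone carry such transgenes. Zscan4 marks a rare transient state of mouse ES cells and the 2-cell embryo, and a protein fused to the ERT2 receptor domain is held outside the nucleus until tamoxifen binds it. Early reprogramming is known for loss of mesenchymal features and gain of epithelial ones, while the endogenous pluripotency network usually comes on later and in few cells.

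No probe came with a gene symbol, description or position, and the RefSeq gene list at hand held 0 of the 125 identifiers. A middle stretch of each member was searched in promoter and microRNA sequences only, and 0 of 125 matched in either. A probe to the body or end of a transcript need not match there. No transcript sequences were at hand to search. Lists of pluripotency, epithelial and 2-cell genes, and the markers that would check the labelled cell types, could therefore not be applied. Which members, if any, read the Klf4, Oct4 or Sox2 transgenes is likewise not known. Members are named below by probe identifier, and the sequence that each was designed to bind stands in place of a name.

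The probes are 60 bases long. The last 30 bases, positions 31 to 60 as the files give them, are shown for the 10 members to which the results below return most. Capitals mark AATAAA, the canonical signal for cleavage and polyadenylation near the end of an mRNA.
Z00026928-1: aagatagacattgggaggggctgaagtcca
Z00070078-1: gtcAATAAAgagagtttcaacacctgccaa
Z00034079-1: ttgttggctgtatttaccaggatAATAAAg
Z00022762-1: tggtaactgtgagaccttcatccactgcct
Z00024703-1: tcccacaccctaccccaacaccatatggaa
Z00038065-1: cggttgtagcagaagatctattgctaaact
Z00055483-1: tacctctattaaatggtttaaaacgtcagt
Z00029389-1: agactgccttcaccaacttctgcttgtgta
Z00024810-1: gcgaacagcagttggcagcgtgaaAATAAA
Z00070171-1: gttctggcAATAAActtgcagaccttggaa

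Over all 60 bases, 17 of the 125 members (13.6%) held AATAAA on the strand the files give, against 12.3% of the other pluripotent-cell probes, 7.9% of the probes of the series matrix and 6.93% of all 42006 probes. The reverse complement TTTATT, whose matches cannot share bases with it, was in 5 members (4%), against 3.36% of all probes. The members' median GC content was 45%, with a range from 30% to 68.3%, and that of all probes was 43.3%. At least 1 of the 3 forward reading frames was free of stop codons in 80% of the members and in 83.4% of all probes. The hexamer was thus about as frequent among the members as among the other pluripotent-cell probes.

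No pair of members shared 20 bases in a row, so no transcript was counted through overlapping members, although probes to different stretches of 1 transcript cannot be recognised here. For 8 members, 9 further probes on the array overlapped a member by 20 to 55 bases. None of the 9 was among the 25030 probes of the series matrix, so none could have been chosen. Stretches of 30 bases from the pairs with the shortest overlaps show how they join, with the shared bases in capitals (positions 31 to 60 of the member, then 1 to 30 of its neighbour).
Z00074770-1: tatacgTCTTACGTGTTTGTATTACCTGTC
Z00058866-1: TCTTACGTGTTTGTATTACCTGTCttgcat
Z00074805-1: gctggtggtTGTGTCTCGCTTTTTCATTAt
Z00025495-1: TGTGTCTCGCTTTTTCATTAcaaaccatta
These neighbours share part of their sequence with a member and were read from other spots. Beside tamoxifen on day 1, doxycycline changed Z00074770-1 by 1.61 and its neighbour Z00058866-1 by 1.63 on the log2 scale, and Z00074805-1 by 0.95 and its neighbour Z00025495-1 by 0.96. All 9 overlapping probes were called higher on day 1 beside tamoxifen and, without tamoxifen, on both later days (limma, adjusted p under 0.05). In those comparisons 23.1%, 31% and 28.9% of all probes were called higher. The neighbours were read on the same arrays as the members, so a difference between slides would appear in both. In 7 of the 9 pairs both probes lay within 0.25 of each other on day 1. The largest gap was 0.53, between Z00074483-1 at 2.87 and Z00014749-1 at 2.35.

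In the values that chose them, the members spanned a wide range of brightness. E ran from 2.52 to 4.86 in log10 units with a median of 3.22, and P from 1.03 to 3.99 with a median of 2.07. N1 ran from 1.03 to 3.79 with a median of 2.15, and D1 from 1.94 to 4.73 with a median of 3.08. The share of the log10 gap covered on day 1 went from 50.7% to 296%. It was above 100% for 31 members (24.8%), whose median share was 131%, and 66.9% at the median of the other 94. The highest share belonged to Z00070340-1, named after its values were seen, with N1 at 2.29, D1 at 4.21 and E at 2.94. At the threshold, Z00074210-1 (50.7%) and Z00024811-1 (51.0%) lay just inside, and Z00025439-1 (49.9%) and Z00018796-1 (49.5%) just outside. The members therefore hold no sharp boundary to the probes that narrowly missed the rule, which the plot of D1-N1 against E-N1 shows.

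**Figure D1:**
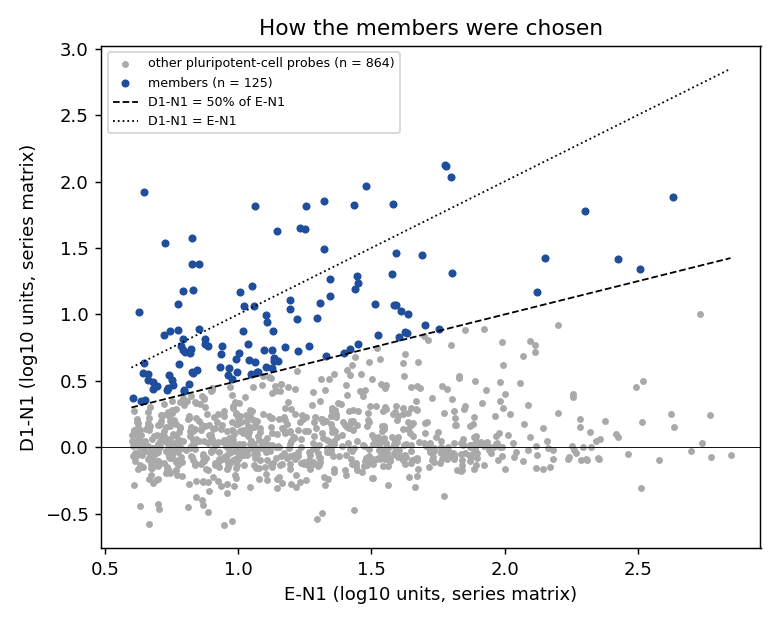
Each point is 1 of the 989 probes that met the first 3 conditions, with E-N1 on the x axis and D1-N1 on the y axis, both in log10 units of the series matrix; the 125 members are blue and the other 864 grey. The dashed line is the 50% threshold and the dotted line marks D1 equal to E: 31 members lie above the dotted line, and grey points crowd up to the dashed line. These values chose the members.

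The first arrays that the choice did not use are those of day 1 beside tamoxifen. They lay on the same slides as the day 1 arrays that chose the members, so a difference between those slides would recur in them. There, all 125 members were higher in Dox+Tmx+ than in Dox-Tmx+ secondary MEFs, with a median log2 change of 2.10 (4.29-fold). Of all 33099 probes tested, 23.1% were called higher in that comparison (limma, adjusted p under 0.05), and 304 of the 864 other pluripotent-cell probes were. The median change was 0.08 in those 864 and -0.01 over all probes. The smallest member change was 0.54 and the largest 6.45, 117 members were at least 2-fold higher, and 14 at least 16-fold.

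Z00070078-1 changed most. Its log2 ratios to the reference were 2.48 and 2.57 in the Dox+Tmx+ cultures and -3.88 and -3.98 in the Dox-Tmx+ cultures, a difference of 6.45 (SE 0.0719, limma adjusted p = 4.32e-27). Its ES arrays read 1.27 and 1.26 and its iPS arrays 1.20 and 1.17, so the induced cultures of day 1 stood above both. Z00026928-1 followed, at 3.20 and 3.60 against -2.73 and -2.60, a difference of 6.06 (SE 0.123, adjusted p = 2.62e-22). Its day 1 arrays also stood above those of ES cells, at 2.04 and 1.70, and of iPS cells, at 2.05 and 2.11. For both probes no induced array overlapped an uninduced one.

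At the other end, Z00024811-1 read -0.94 and -0.82 in the Dox+Tmx+ cultures and -1.40 and -1.44 in the Dox-Tmx+ cultures, a difference of 0.54 (SE 0.0878, adjusted p = 1.49e-05). This probe was well above background on only 1 of the 2 Dox-Tmx+ arrays, so the difference is a fitted value. Z00038858-1 differed by 0.70 (SE 0.0863, adjusted p = 2.57e-07). It was not well above background, here called dim, on either Dox-Tmx+ array, so only a bound can be given for it, at least 1.59-fold. Such bounds set the mean sample-channel signal of the bright group against the lowest signal counted as well above background in the dim group, or the probe's own where higher. They leave out the reference channel, so they can exceed the fold of the fitted ratios. In this comparison 14 members were dim on both uninduced arrays, and their bounds ran from at least 1.59-fold to at least 27.3-fold. Among the 109 members measured on all 4 arrays, all 109 were called higher and the median was again 2.10.

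The change was also present on later days. Without tamoxifen, all 125 members were higher with doxycycline on day 3, at a median log2 change of 3.22 against 31% of all probes called higher, and 122 on day 6, at a median of 2.84 against 28.9%. Beside tamoxifen the counts were 125 on day 3 (median 3.40, 32.9% of all probes higher) and 123 on day 6 (median 3.26, 31.1%). One member was called lower on day 6 without tamoxifen, where 25.5% of all probes were, and 1 beside tamoxifen, where 28% were. The other pluripotent-cell probes moved up in part: 533 of 864 were called higher on day 3 and 478 on day 6 without tamoxifen, at medians of 0.35 and 0.28. The spread among members was wide, from 0.31 to 8.12 on day 3 and from -0.38 to 8.19 on day 6.

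**Figure D2:**
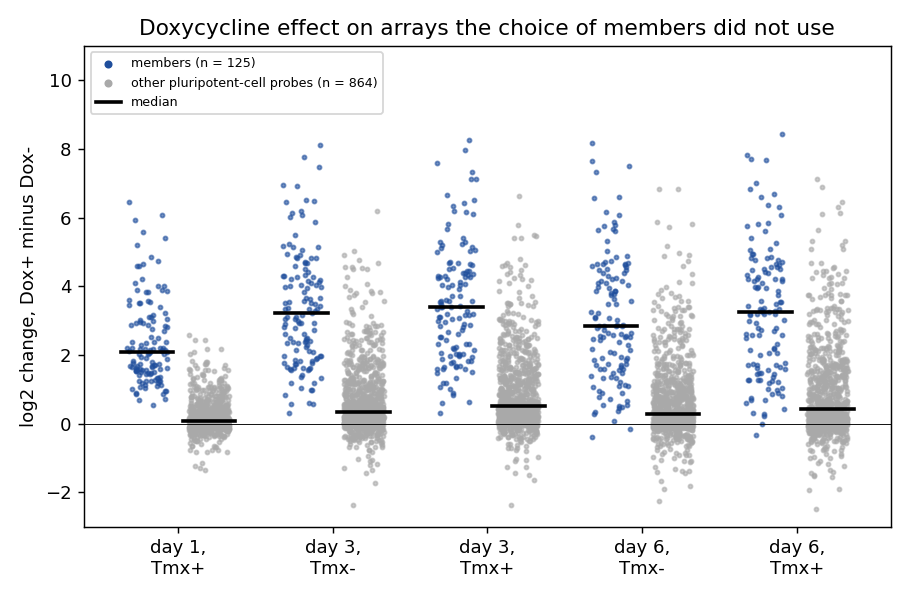
Each point is 1 probe's log2 difference between Dox+ and Dox- secondary MEFs (y axis) in the 5 comparisons on the x axis, members in blue and the other 864 pluripotent-cell probes in grey, with medians as black bars. The members' medians are 2.10, 3.22, 3.40, 2.84 and 3.26 from left to right, while those of the other probes stay between 0.08 and 0.52.

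Z00026928-1 had the largest difference on both later days. Its Dox+Tmx- arrays read 5.51 and 5.56 on day 3 and 5.64 and 5.23 on day 6, against -2.56 and -2.62 and then -2.74 and -2.76 without doxycycline, which gives 8.12 and 8.19 (SE 0.123 for each). Z00070078-1 was 7.75 higher on day 3 and Z00034079-1 was 7.66 higher on day 6. Z00034079-1 was not well above background on either Dox-Tmx- array of day 6, so the fold there is at least 193. All 3 were above their ES and iPS levels by day 3.

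The member called lower on day 6 was Z00038065-1. Its Dox+Tmx- arrays read 0.57 and 0.69 on day 1, then -0.65 and -0.58 on day 3, and finally -1.12 and -1.34 by day 6. Its Dox-Tmx- arrays read -0.95 and -1.14, then -1.0 and -0.84, then -0.88 and -0.82, and its ES arrays 0.79 and 0.74. The day 1 and ES values are among those that chose it. The induced cultures were above the uninduced ones by 0.31 on day 3 (SE 0.0818, limma adjusted p = 0.00234) and below them by day 6 (difference -0.38, adjusted p = 0.000308). The day 3 call was lost with local backgrounds as deposited (adjusted p = 0.129), with the Feature Extraction ratio (0.0628) and with the series matrix (0.0682). It was also lost without replicate 1 of the Dox-Tmx- cultures of day 3 (0.22, adjusted p = 0.0599). Beside tamoxifen the day 6 difference was -0.32 (adjusted p = 0.00165; 0.109 with local backgrounds as deposited).

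Z00034676-1 differed by -0.16 on day 6 without tamoxifen (adjusted p = 0.0674), after 1.04 on day 1 beside tamoxifen. Its Dox-Tmx+ arrays rose between day 1 and day 6, from -0.99 and -1.05 to 0.15 and 0.09, a change of 1.14 (SE 0.0738, adjusted p = 2.08e-12), while the Dox+Tmx+ arrays read 0.04 and -0.01 on day 1 and 0.06 and 0.15 on day 6. Under the Feature Extraction ratio and the series matrix the day 6 difference was -0.33 and passed the test, with adjusted p = 0.00492 and 0.00438. Z00075495-1 had the second smallest difference on day 3, 0.56 (adjusted p = 9.88e-09; 0.0715 with local backgrounds as deposited). It was dim on both uninduced arrays, and the bound is at least 1.40-fold.

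The size of the doxycycline effect itself changed between days. Beside tamoxifen, it was larger on day 3 than on day 1 in 101 members and smaller in 11, with a median difference of 1.03, against 23.9% of all probes with a larger and 17.6% with a smaller effect. From day 3 to day 6, without tamoxifen, it grew in 20 members and shrank in 63, with a median of -0.31, against 11.3% and 15.9% of all probes. These tests subtract one doxycycline effect from another, and they share no array with each other. With local backgrounds as deposited, 3 members grew and 48 shrank in the second test, which called 6544 of all probes instead of 9015. The first test used Tmx+ cultures and the second Tmx- cultures, so neither arm was followed from day 1 to day 6. Of the 101 members called larger in the first test, 53 were called smaller in the second, 18 larger and 30 not called. Of the 11 called smaller in the first, 7 were called smaller in the second, 1 larger and 3 not called. These joint counts were not taken over all probes. Among the other pluripotent-cell probes 490 of 864 grew to day 3 and 47 shrank, while 168 grew and 182 shrank from day 3 to day 6.

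Z00022762-1 gained most after day 1. Its Dox+Tmx+ arrays read 0.69 and 0.57 on day 1 and 5.31 and 5.25 on day 3, against values between -0.90 and -0.59 in the Dox-Tmx+ cultures of those days, so its effect grew by 4.93 (SE 0.136, adjusted p = 7.95e-19). ES cells read 0.79 and 0.68, below the day 3 cultures. It was dim on 1 of the 2 Dox-Tmx+ arrays of day 3. Z00024703-1 grew by 4.27 (SE 0.111, adjusted p = 2.94e-19), from -1.40 and -1.45 on day 1 to 2.75 and 2.70 on day 3, with ES cells at -1.93 and -1.73. The effect shrank most in Z00038065-1, where it changed by -1.19 (SE 0.116), and in Z00075495-1, where it changed by -1.13 (SE 0.083). The latter was dim on both Dox-Tmx+ arrays of day 3, so its effect on that day is only bounded and this difference is a fitted value.

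From day 3 to day 6, Z00034079-1 grew by 1.66 (SE 0.1, adjusted p = 5.48e-12), and its Dox+Tmx- arrays went from 2.28 and 2.20 to 3.82 and 3.78. It was dim on 1 Dox-Tmx- array of day 3 and on both of day 6, so the difference is a fitted value. With local backgrounds as deposited that change was 1.15 and did not pass (adjusted p = 0.163). Z00007374-1 grew by 1.56 (SE 0.131, adjusted p = 1.39e-09), which did not pass under the Feature Extraction ratio (1.13, adjusted p = 0.201). Its Dox+Tmx- arrays went from 1.14 and 0.96 to 2.67 and 2.55. The effect shrank most in Z00055483-1, with a change of -2.14 (SE 0.137, adjusted p = 1.45e-11). Its Dox+Tmx- arrays went from 0.82 and 0.67 to -0.62 and -0.56, and its Dox-Tmx- arrays from -2.40 and -2.32 to -1.74 and -1.36, so both arms moved towards each other. In Z00025932-1 it changed by -2.04 (SE 0.160), its induced arrays falling from 4.18 and 4.02 to 2.05 and 2.06, with ES cells at 2.32 and 2.14. Both Z00007374-1 and Z00025932-1 were dim on all Dox-Tmx- arrays of these days, so each effect has only a bound and their differences are fitted values, not measured ones.

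**Figure D3:**
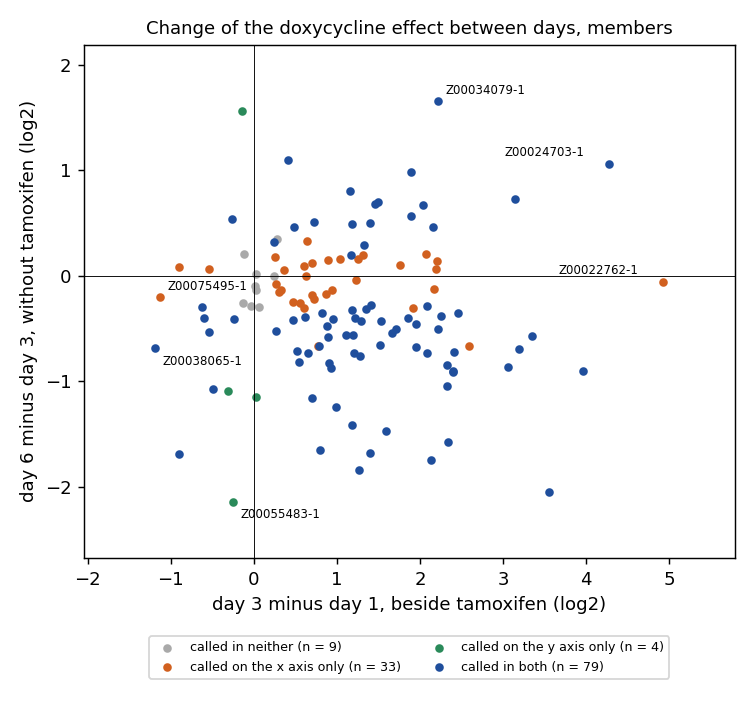
Each of the 125 members is plotted by the change of its doxycycline effect from day 1 to day 3 beside tamoxifen (x axis, log2) and from day 3 to day 6 without tamoxifen (y axis, log2), coloured by which test called it. Most points lie at positive x and negative y; 79 were called in both tests and 9 in neither.

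Set against the pluripotent level itself, the members came to lie on both sides of it. In the series matrix, 31 members had a mean above E in Dox+Tmx- cultures of day 1, where the rule used the values. On other arrays the number was 33 beside tamoxifen on day 1. It was 71 and 77 on day 3 without and with tamoxifen, and 66 and 69 on day 6. The rule did not use these arrays, but it used E, so the counts are not free of the choice. On day 6 without tamoxifen, 36 members were at least 0.3 log10 units above E and 39 at least 0.3 below it. Of the 31 members above E on day 1, 30 were above it beside tamoxifen on day 1, 31 on day 3 and 29 on day 6. Of the other 94, 3, 40 and 37 were. Among the 31 members that covered under 60% of the gap on day 1, 8 were above E on day 3 and 5 on day 6. No member's mean was above E in any of the 10 groups without doxycycline other than ES and iPS cells, which the rule fixed in part, through P and N1.

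**Figure D4:**
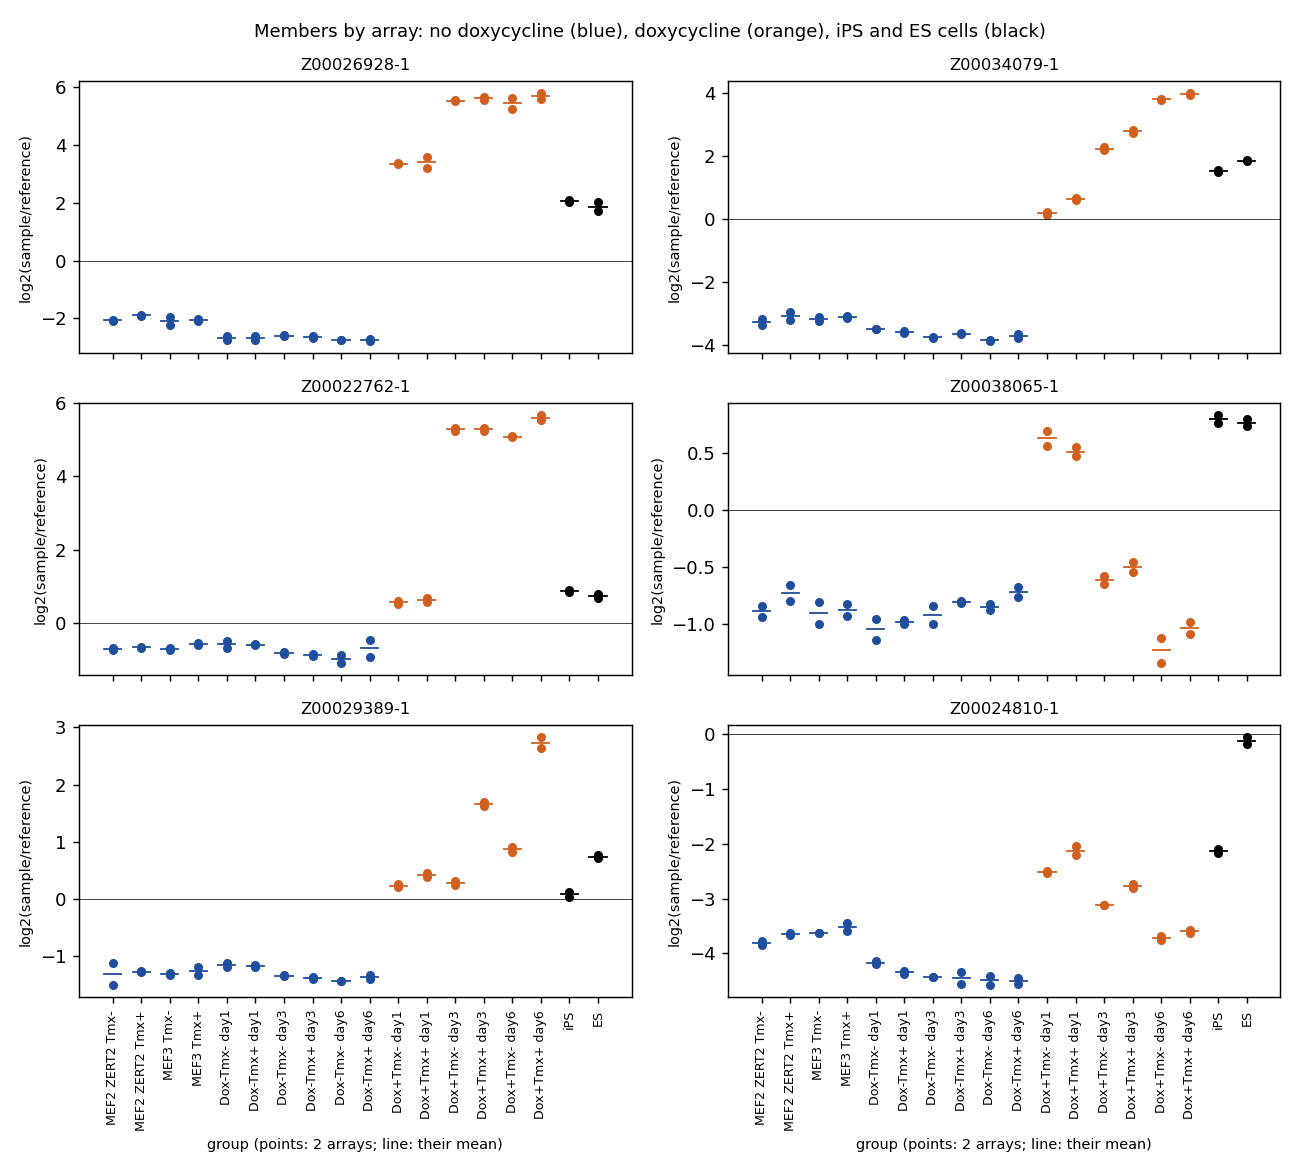
Log2 ratios to the common reference (y axis) of 6 members in the 18 groups (x axis), with 1 point for each of the 2 arrays and a line at their mean; cultures without doxycycline are blue, those with doxycycline orange, and iPS and ES cells black. Z00026928-1, Z00034079-1 and Z00022762-1 end above both pluripotent lines, Z00038065-1 falls back below the uninduced cultures by day 6, Z00029389-1 is higher with tamoxifen on days 3 and 6, and Z00024810-1 separates iPS from ES cells.

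With doxycycline, a share of the members was higher in cultures that also received tamoxifen, which releases the Zscan4ERT2 protein to the nucleus. Tamoxifen and array position cannot be told apart here. On day 3, 38 members were higher in Dox+Tmx+ than in Dox+Tmx- cultures and 8 lower, against 5.2% and 2.14% of all probes, at a median change of 0.12. On day 6, 55 were higher and 3 lower, against 6.82% and 2.43%, at a median of 0.22. Of the members called higher, 31 were shared, which is 81.6% of the day 3 list and 56.4% of the day 6 list. The overlap was not counted over all probes or over the other pluripotent-cell probes. The shifts were small, with 2 members at least 2-fold higher on day 3 and 4 on day 6. Of the other pluripotent-cell probes, 261 of 864 (30.2%) were higher on day 3 and 318 (36.8%) on day 6, beside 30.4% and 44% of the members. The counts depend on the processing. With local backgrounds as deposited 9 members were called on day 3 and 13 on day 6, with the Feature Extraction ratio 21 and 31, and with the series matrix 27 on day 3. Over all probes the reported fit called 2429 on day 3 and 3059 on day 6. Local backgrounds as deposited gave 1006 and 1399, the Feature Extraction ratio 1552 and 2029, and the series matrix 2094 on day 3. Without replicate 2 of the Dox+Tmx- cultures of day 3, 30 were called on that day.

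Z00029389-1 changed most on both days. Its arrays read 0.32 and 0.25 in Dox+Tmx- and 1.63 and 1.70 in Dox+Tmx+ cultures on day 3, a difference of 1.39 (SE 0.0806, adjusted p = 9.98e-11). On day 6 they read 0.91 and 0.82 against 2.83 and 2.64, a difference of 1.87 (SE 0.0806, adjusted p = 1.98e-13). ES cells read 0.76 and 0.72 and iPS cells 0.03 and 0.13, so the cultures with both drugs stood above both on each day. Z00053485-1 was second on day 6, at 1.69 on both arrays without tamoxifen and 3.10 on both with it, a difference of 1.41 (SE 0.059). Z00024703-1 was second on day 3, with 1.21 (SE 0.0787).

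Few members were lower beside tamoxifen. Z00001247-1 read -1.44 and -1.60 without and -1.94 and -1.89 with tamoxifen on day 3, a difference of -0.39 (SE 0.0688, adjusted p = 0.000461), and the difference was again -0.39 on day 6 (adjusted p = 0.000385). With local backgrounds as deposited neither passed (adjusted p = 0.728 and 0.665). Z00023705-1 differed by -0.34 on day 3 and -0.33 on day 6 (adjusted p = 0.0206 and 0.0208), and also lost both calls under that setting (0.276 and 0.255) and with the Feature Extraction ratio (0.253 and 0.216). With the series matrix it lost the day 3 call (0.0588). Leaving out 1 array ended the day 3 call for either Dox+Tmx- replicate and for Dox+Tmx+ replicate 2 (0.0968 to 0.225), and the day 6 call for each of the 4 arrays in turn (0.0577 to 0.147).

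Without doxycycline, tamoxifen changed no member on day 3 or day 6 in the limma fit, and called 0% of all probes on either day. At an unadjusted p under 0.05 there were 2 members on day 3 and 16 on day 6, against 824 and 2980 of all 33099 probes. From the series matrix 0 members were called on day 3 and 5 on day 6, and without replicate 1 of the Dox-Tmx+ cultures of day 6 there were 17 on that day (1 without replicate 2). Over all probes these settings called 665, 7141 and 22. The largest fitted changes were 0.20 for Z00037948-1 on day 3 (adjusted p = 1) and 0.29 for Z00022762-1 on day 6 (adjusted p = 0.553). The latter was 2.52 from the series matrix (adjusted p = 0.000136) and 0.52 without replicate 2 of the Dox-Tmx+ cultures (adjusted p = 0.0111). Z00022762-1 was dim on both Dox-Tmx- arrays and above background on 1 Dox-Tmx+ array, which read -0.47 beside -0.93 on the other.

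Whether tamoxifen acted differently in the presence of doxycycline was tested directly, in comparisons added after earlier results were known. The effect beside doxycycline minus that without it was positive in 20 members and negative in 5 on day 3, against 1.95% and 0.426% of all probes, and positive in 27 and negative in 2 on day 6, against 3.07% and 0.988%. Among the other pluripotent-cell probes the shares with a positive difference were 17.2% and 21.9%, against 16% and 21.6% of the members. Of the members, 16 were positive on both days, an overlap that was not counted over all probes. Z00029389-1 led both days with 1.43 (SE 0.114) and 1.80 (SE 0.114). On day 3 the total of 25 was 2 with local backgrounds as deposited (2 positive, 0 negative), 9 with the Feature Extraction ratio (6 and 3) and 14 with the series matrix. It was 16 without either replicate of Dox-Tmx-, without replicate 1 of Dox+Tmx-, or without replicate 1 of Dox+Tmx+. On day 6 the total of 29 was 6 with local backgrounds as deposited and 12 with the Feature Extraction ratio (10 and 2). Over all probes the reported fit called 788 on day 3 and 1343 on day 6. Local backgrounds as deposited gave 164 and 592, the Feature Extraction ratio 290 and 652, and the series matrix 600 on day 3.

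**Figure D5:**
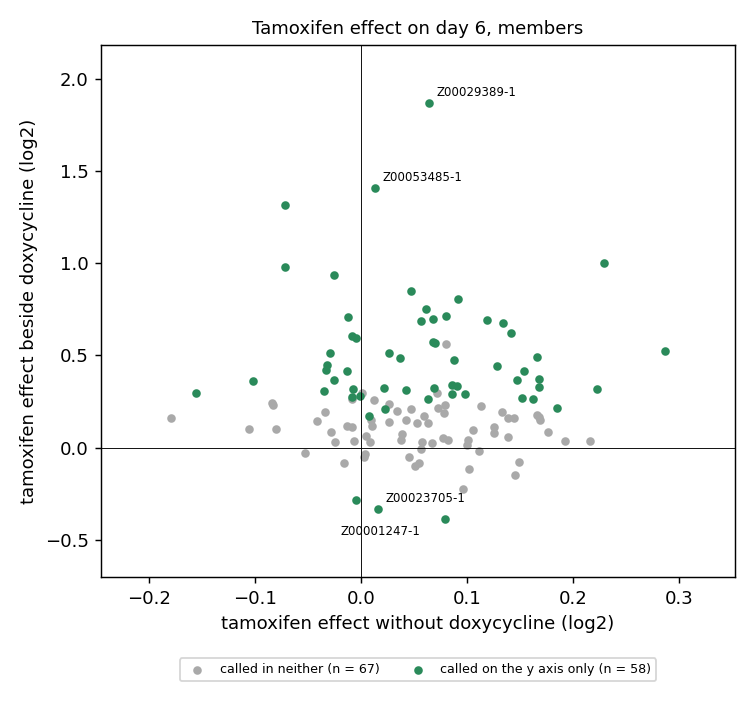
Each of the 125 members is plotted by its tamoxifen effect on day 6 without doxycycline (x axis, log2) and beside doxycycline (y axis, log2, a wider scale), coloured by whether limma called it. All 58 called members were called on the y axis only, and the values on the x axis lie between -0.18 and 0.29.

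Between day 1 and day 6 without doxycycline, the members were called about as often as all probes. In Dox-Tmx+ cultures 30 members were higher on day 6 than on day 1 and 36 lower, with a median of -0.04. These shares, 24% and 28.8%, are near the 27.7% and 26.2% of all probes and are no result about the members. Day 1 and day 6 arrays were on different slides and scanned on different days, which cannot be told apart from time. With local backgrounds as deposited 33 members were called, and 15809 of all probes, against 17853 in the reported fit. Z00075622-1 rose most, from -1.25 and -1.38 to 1.23 and 1.40, a change of 2.62 (SE 0.0727, adjusted p = 3.5e-19). Z00055483-1 rose by 1.30 (SE 0.097). Z00026045-1 fell most, from 0.02 on both arrays to -1.45 and -1.52. It was dim on both arrays of day 6, so only a bound can be given for the fall, at least 2.94-fold. Z00070171-1 fell by 1.09 on the log2 scale (SE 0.0779).

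In primary MEFs the members were low, as the rule required of the untreated cultures. Their median log2 ratios were -1.52 and -1.38 in MEF2 ZERT2 without and with tamoxifen and -1.37 and -1.33 in MEF3, close to the -1.82 to -1.65 of the 6 uninduced secondary groups. The number of members well above background on both arrays was 75 and 77 in MEF2 ZERT2 and 71 and 87 in MEF3 (Tmx- first). It was 97 and 109 in the Dox- groups of day 1, 105 and 106 in those of day 3, and 110 and 108 in those of day 6. All 125 were above background on both arrays of every Dox+ group, of iPS and of ES cells, and 67 were on all 36 arrays. Only 6 members were dim on all 16 arrays of the untreated primary and the uninduced secondary groups.

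Both pluripotent lines enter the rule through their mean, so the difference between them was still open to a test. In iPS cells 31 members were lower than in ES cells and 6 higher, with a median of -0.10, against 5.18% and 2.94% of all probes. Among the other pluripotent-cell probes 121 of 864 (14%) were lower and 86 (9.95%) higher. The total of 37 fell to 8 with local backgrounds as deposited, to 18 with the Feature Extraction ratio (1 higher, 17 lower), to 19 without iPS replicate 2 and to 22 without ES replicate 2. Over all probes, 2688 were called in the reported fit, 1309 with local backgrounds as deposited and 2711 with the Feature Extraction ratio. Cell line, transgenes and array position cannot be told apart here.

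Z00024810-1 differed most. It read -2.09 and -2.18 in iPS and -0.06 and -0.18 in ES cells, a difference of -2.01 (SE 0.0724, adjusted p = 2.52e-15). Secondary MEFs with both drugs read -2.21 and -2.05 on day 1, then -2.80 and -2.74 on day 3 and -3.63 and -3.57 on day 6. Dox-Tmx+ arrays of those days lay between -4.56 and -4.32, so its doxycycline effect went from 2.22 on day 1 to 0.90 on day 6 and still passed the test. Z00070171-1 was the second, at -0.97 and -1.03 in iPS and 0.50 and 0.53 in ES cells (difference -1.51, SE 0.0779, adjusted p = 1.39e-12). With both drugs it read 2.70 and 2.83 on day 1 and 4.01 and 3.94 on day 6, far above both lines.

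The members higher in iPS cells differed by less. Z00049813-1 read 1.17 and 1.16 in iPS and 0.70 and 0.82 in ES cells, a difference of 0.41 (SE 0.0732, adjusted p = 0.000497). It did not pass with local backgrounds as deposited (adjusted p = 0.1), the Feature Extraction ratio (0.311) or the series matrix (0.296). Z00038858-1 differed by 0.38 (SE 0.0863, adjusted p = 0.00506), and was not called in a fit of the 4 arrays of that slide alone (0.0577), with the Feature Extraction ratio (0.552) or with the series matrix (0.449). It also lost the call without iPS replicate 2 (0.34, adjusted p = 0.077) and without ES replicate 2 (0.25, adjusted p = 0.209).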

How the data were processed

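The members and lists were chosen with earlier results of these data known. Agilent Feature Extraction 9.5.1.1 read the scans, per the file headers. The deposited intensity values, mean spot and median local background per channel, are not normalized. Per the labels, samples were Cy3 and the reference Cy5, without dye swaps. The deposited log10 ratio of Feature Extraction (sign turned) and the authors' series matrix, log10 sample brightness, were alternatives. The matrix medians were 2.37 to 2.46 per array, its columns correlated at 0.952 to 0.981 with log10 sample-channel intensity, and the sources used here give neither its scaling nor its centring.

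Local backgrounds marked as outliers were replaced by the array median. Then limma 3.58.1 (R 4.3.3) applied normexp (offset 50) and loess within arrays, with control and non-uniform spots at weight 0. Spots of a probe were averaged, and log2 ratios are sample over reference. The offset narrows the differences of dim probes. Probes well above background on both arrays of at least 1 group were kept (33099, with all 125 members; 8907 left out). lmFit and eBayes fitted 18 group means on all 36 arrays (18 residual and 5.05 prior degrees of freedom), two-sided, with Benjamini-Hochberg adjustment over all probes tested in a comparison and calls at adjusted p under 0.05. The fit was tested on simulated data. No member value was missing or saturated. In each comparison the 2 largest and 2 smallest member changes were named.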

Additional observations from a re-analysis of the deposited data

Results flagged for a closer look

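Tests of a difference between effects picked out 4 comparisons. The doxycycline effect beside tamoxifen differed between day 3 and day 1 in 112 members, led by Z00022762-1 (4.93) and Z00024703-1 (4.27) on the log2 scale. Without tamoxifen it differed between day 6 and day 3 in 83 members, led by Z00055483-1 (-2.14) and Z00025932-1 (-2.04). The tamoxifen effect with doxycycline differed from that without it in 25 members on day 3, led by Z00029389-1 (1.43) and Z00024703-1 (1.27). On day 6 it did so in 29 members, led by Z00029389-1 (1.80) and Z00053485-1 (1.39; 1.30 with adjusted p = 0.0853 in limma on the Feature Extraction ratio). The day 3 difference of Z00024703-1 was 1.28 with local backgrounds as deposited and did not pass there (limma adjusted p = 0.369). Z00025932-1 and Z00053485-1 were not well above background on the arrays without doxycycline that enter these differences, so theirs are fitted values only. The days lie on different slides, which cannot be told apart from time. The tamoxifen effects lie within slides, where tamoxifen cannot be told apart from array position.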

How the results depend on the processing

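Applied to log2 ratios, the rule gave 59 members, 58 of them among the 125, and 123 to 128 when 1 array of the rule was left out. All counts below are members called. Calls over all probes for the counts with local backgrounds as deposited, the Feature Extraction ratio and the series matrix are given above. The 5 doxycycline counts stayed within 1.5 times of the reported ones under every alternative run. With local backgrounds as deposited, the count was 51 for the change from day 3 to day 6, 9 and 13 for tamoxifen beside doxycycline on days 3 and 6, 8 for iPS against ES, 33 for culture time, and 2 and 6 for the differences of tamoxifen effects. With the Feature Extraction ratio it was 21, 31, 18, 9 and 12 for tamoxifen on days 3 and 6, iPS against ES, and both differences. With the series matrix it was 27 for tamoxifen on day 3, 14 for its difference and 5 for tamoxifen alone on day 6. The cause was not tested. Leaving out 1 array gave 30 to 32 for tamoxifen beside doxycycline on day 3, 46 to 51 on day 6, 0 to 17 for tamoxifen alone on day 6, 19 to 30 for iPS against ES, 16 to 20 and 25 to 42 for the differences on days 3 and 6. No direction of a called named member was reversed: 728 of the alternative values of named members kept their side of the threshold, 49 lost a call and 7 gained one.

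Replicate numbers are shared by label only. Deviations of same-numbered arrays correlated between -0.63 and 0.53 over 153 pairs of groups (median near 0), so no pairing was taken. With the replicate block the counts for doxycycline were 125 on day 1 beside tamoxifen, 125 and 123 without tamoxifen on days 3 and 6, and 125 and 124 beside it, with 47 and 61 for tamoxifen on days 3 and 6 and 36 for iPS against ES. Slide as a random block could not be fitted beside group means, since each group lies on 1 slide. An alternative without the 2 arrays on which the plain background correction failed was chosen after seeing the data and gave counts within 1.5 times of the reported ones, 47 and 60 for tamoxifen on days 3 and 6.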
